A study of Mus musculus with 9 samples.

Results

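The nuclear genes of the mitochondrial respiratory chain and ATP synthase were followed in the dentate gyrus of mice before and after neuronal activation. Members were chosen by symbol alone, as rows of both deposited tables with the gene symbols of complex I (Nduf with a, b, c, s or v and a number), complex II (Sdha to Sdhd), complex III (Uqcr), complex IV (Cox4 to Cox8) and complex V (Atp5), leaving out the Ndufaf assembly factors and pseudogene symbols. That gave 84 of the 24015 genes listed, with 37 in complex I, 4 in complex II, 8 in complex III, 18 in complex IV and 17 in complex V. The symbols do not cover every subunit, so Cyc1 of complex III and Ndufab1 of complex I are given below with other mitochondrial genes, and a few members are named for a complex without being regular subunits of it.

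Wild-type C57BL/6 mice aged 8 weeks were grouped as E0, E1 and E4, with 3 mice in each, and libraries were made from the microdissected dentate gyrus of individual animals. From general knowledge of the study and not from the labels, which leave the numbers without a unit, E0 mice were untreated and the others were taken 1 h (E1) and 4 h (E4) after electroconvulsive stimulation, which drives synchronous firing of granule neurons. All values come from a pair of deposited comparison tables, in which E1 and E4 were each set against E0. Each table gives, per gene, a mean normalised count over the libraries of the comparison (mean count here), a log2 fold change over E0 with its standard error (SE), and a p adjusted over all genes tested. Values per mouse were not analysed here, so that no spread over animals can be shown and every value carries the authors' SE. A gene was called raised or lowered where the authors' adjusted p was below 0.05.

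Respiratory complexes I to IV pass electrons from NADH and succinate to oxygen and, except for complex II, pump protons out of the mitochondrial matrix; complex V lets the protons back in and makes ATP. All the members are transcribed in the nucleus and their proteins imported, while a smaller set of subunits is made from mitochondrial DNA and is not part of the symbols followed here. In neurons, most of the ATP used to restore ion gradients after firing comes from this machinery. The factors NRF1 and GABP bind many promoters of these genes, and Ppargc1a is a coactivator of both.

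In E1 all the calls among the respiratory chain and ATP synthase genes were decreases while most members had no call. Of 81 members with an adjusted p, 38 were lowered, 0 raised and 43 not called in the authors' deposited table, where DESeq2 called 15.0% of all genes lowered and 20.6% raised, or 35.5% in either direction. The lowered share of the members was 46.9%. The genes tested included little-read ones, down to a mean count of 1.30, whereas 75 of the members reached 50. Among other genes that reached 50, the lowered share was 39.2% for transcripts under 1 kb and 26.4% for 1 to 2 kb. It was 20.1% for 2 to 4 kb and 15.6% for over 4 kb. Before adjustment, 43 members were lower and 2 higher at p below 0.05. The median log2 fold change of the members was -0.31, beside 0.02 over all 15660 genes tested, and 71 of the 81 lay below 0. By complex, 15 of 36 members were lowered in complex I, 3 of 4 in complex II, 5 of 8 in complex III, 5 of 16 in complex IV and 10 of 17 in complex V.

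In E4 the calls were fewer and went both ways. Of 81 members, 13 were lowered, 7 raised and 61 not called by the authors' deposited table of E4 values, where 18.3% of all genes were called lowered and 20.7% raised, or 39.0% in either direction. The shares of the members were 16.0% lowered, close to that of all genes, and 8.64% raised, below it. The median log2 fold change was -0.06, beside -0.01 over all 14455 genes tested. The plot of log2 fold changes by complex shows both comparisons side by side.

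**Figure D1:**
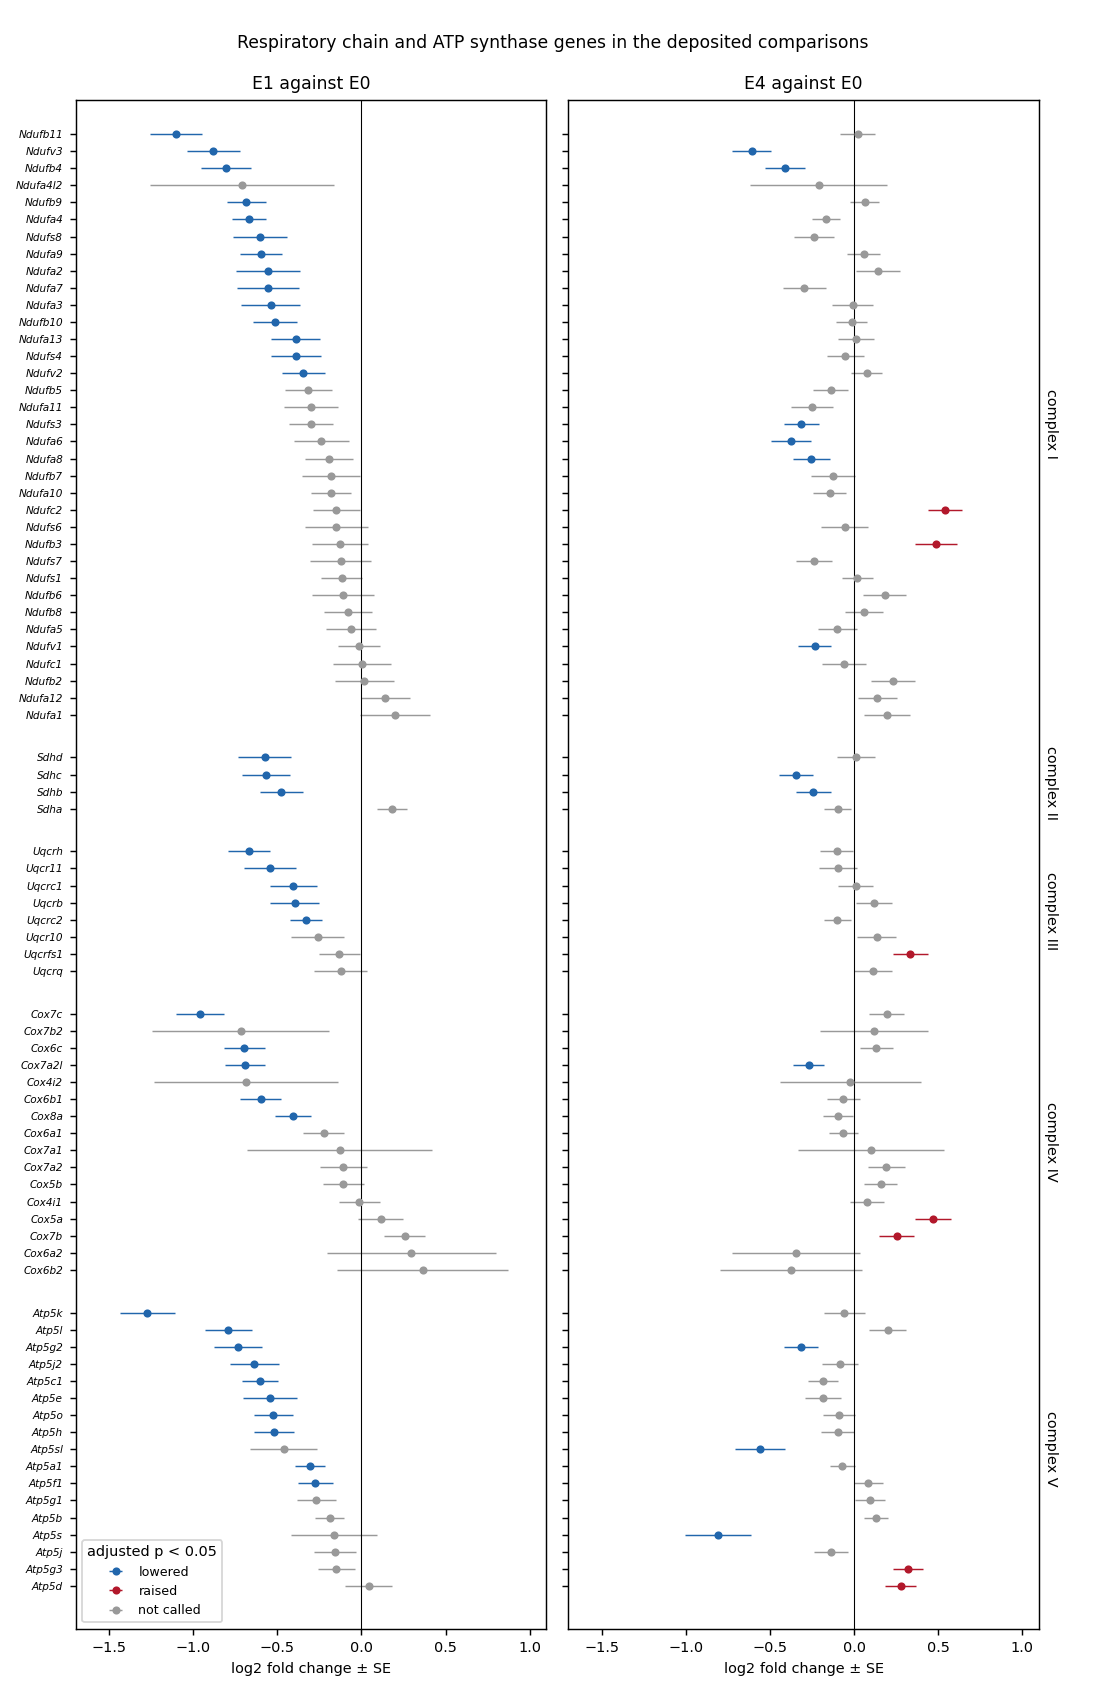
Log2 fold change ± SE (x axis) of 80 of the 81 tested members (y axis, ordered within each complex by their value in E1) in the deposited comparisons of E1 with E0 (left) and E4 with E0 (right). Points are blue where lowered, red where raised and grey where not called at an adjusted p of 0.05. The left panel holds 37 blue and 0 red points, the right panel 12 blue and 7 red.

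Transcript length moved with the E1 result. The members are short, with a median transcript of 755 bases against 2229 for other genes, and in E1 short genes stood lower as a class. Among other genes whose mean count reached 50, the median log2 fold change in E1 was -0.35 for transcripts under 1 kb, -0.16 for 1 to 2 kb, -0.01 for 2 to 4 kb and 0.12 for over 4 kb. In E4 the same medians were -0.04, -0.03, 0.02 and 0.08. Among well-read genes with transcripts under 1 kb, 23 of 46 members were lowered in E1 (median log2 fold change -0.35), against 39.2% of 401 other genes, or 32.3% once cytosolic ribosomal protein genes are left out. For 1 to 2 kb the figures were 13 of 22 members (59.1%, median -0.32) and 26.4% of 1737 other genes (median -0.16).

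When a smooth dependence on transcript length and GC was taken out of all genes, 21 of 80 members were lowered and 4 raised in E1, beside 15.0% and 18.1% of all genes in that form, and the median of the members became -0.15. All 21 were among the 38 lowered before. The 4 raised in that form, with no call in the authors' deposited table, were Cox4i1, Cox5a, Ndufa12 and Ndufb2. In E4 the same step gave 8 lowered and 7 raised of 80, beside 18.4% and 20% of all genes. Cox7b lost its raised call there and Atp5b gained one (0.17, adjusted p = 0.0431), while Atp5sl, which has no transcript length, could not be included. Among the 80 tested members with a length, log2 fold change and log2 length had a Pearson's r of 0.10 in E1, a description across genes that share libraries. Library depth moved with the groups as well, since the E1 libraries held about 1940000 to 4760000 reads, against about 6140000 to 10960000 in E0, while the E4 libraries held about 10020000 to 13550000. The part of length, depth or RNA quality in the E1 result was not tested.

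**Figure D2:**
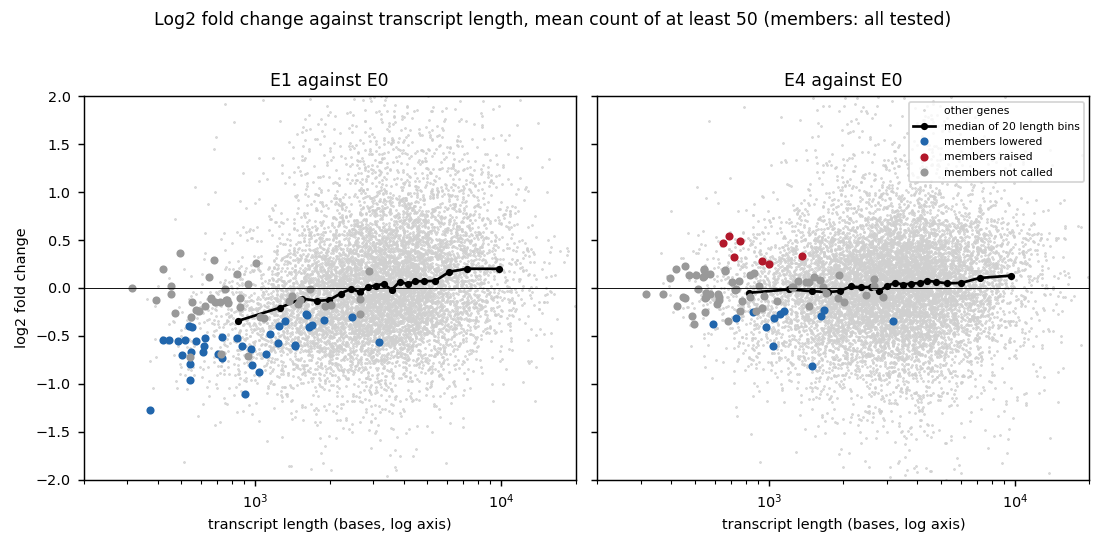
Log2 fold change (y axis) against transcript length in bases (log x axis) for E1 against E0 (left) and E4 against E0 (right). Light grey dots are other genes whose mean count reached 50, the black line joins their medians in 20 bins of length, and large points are the tested members (blue lowered, red raised, grey not called); values beyond 2 in either direction are not drawn. In E1 the black line lies below 0 at the short end, where most members sit.

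Markers of cell types also moved in E1. Of 10 granule neuron markers 7 were lowered and 1 raised, of 10 astrocyte markers 7 lowered and of 10 microglial markers 4 lowered, whereas 5 of 10 GABAergic interneuron markers and 4 of 10 endothelial markers were raised, with 1 endothelial marker lowered. Oligodendrocyte markers had 1 raised and 2 lowered of 10, and markers of CA pyramidal neurons 3 raised and 1 lowered of 8. Summed group means implied by the deposited mean counts and fold changes were 7874 in E1 and 12189 in E0 for the granule list, 31976 in E1 and 35843 in E0 for the astrocyte list, and 4887 in E1 and 3068 in E0 for the interneuron list. They were 1760 in E1 and 2477 in E0 for the microglial list, 839 in E1 and 542 in E0 for the endothelial list, 6522 in E1 and 6324 in E0 for the oligodendrocyte list, and 2952 in E1 and 2539 in E0 for the CA pyramidal list. In E4 the counts were 4 raised and 6 lowered of 10 granule markers, 1 raised interneuron marker, 1 lowered astrocyte marker, 2 lowered microglial markers, no call among 10 endothelial and 10 oligodendrocyte markers, and 1 raised and 1 lowered of 7 tested CA pyramidal markers. The summed means were 22903 in E4 and 23088 in E0 for the granule list, 65714 in E4 and 67809 in E0 for the astrocyte list, and 6358 in E4 and 5760 in E0 for the interneuron list. No marker was listed at 0, granule markers included. In tissue RNA, fewer cells of a type and less RNA per cell cannot be told apart, and the part of cell composition in the members' values was not tested.

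Complex I, the NADH dehydrogenase, has 7 nuclear core subunits that carry the flavin and iron-sulfur centres, and many accessory subunits. Among the core subunits, Ndufs8, which holds iron-sulfur clusters, was lowered in E1 at -0.60 ± 0.16, and Ndufv2 at -0.35 ± 0.13, both in the authors' deposited table. The call of Ndufs8 ended (-0.28, adjusted p = 0.183) and that of Ndufv2 held when the length and GC trend was removed. Core subunits Ndufs1 (-0.12 ± 0.12), Ndufs7 (-0.12 ± 0.18) and Ndufv1, which binds NADH (-0.01 ± 0.13), were not called in E1 in the authors' deposited table, nor was Ndufs3 (-0.30 ± 0.13, adjusted p = 0.0639). Of 28 other tested members named for complex I, with Ndufa4 counted and the isoform gene Ndufa4l2 left out, 12 were lowered.

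Ndufb11, an accessory subunit of the membrane arm, had the largest complex I decrease in E1. Its mean count was 344.3 and its log2 fold change -1.10 ± 0.15 in the authors' deposited table (adjusted p = 1.08e-11), which implies group means of about 219 in E1 and 470 in E0. Ndufa4, named for complex I and now counted with complex IV, stood at -0.67 ± 0.10 there (adjusted p = 9.71e-10), with implied means of about 655 in E1 and 1043 in E0. Ndufb9 at -0.68 ± 0.12 and Ndufv3, an accessory subunit at the NADH-binding end, at -0.88 ± 0.16 followed in the authors' deposited table. Removing the length and GC trend ended 7 of the 15 calls of complex I. Ndufa2, Ndufa3, Ndufa7, Ndufa13 and Ndufb10 were among those 7, at -0.15 to -0.19 in that form. The 4 genes just described kept their call, at -0.78 for Ndufb11, -0.57 for Ndufa4, -0.32 for Ndufb9 and -0.57 for Ndufv3. Ndufs4, whose loss in mice gives a disease like Leigh syndrome, was lowered by less in the authors' deposited table (-0.39 ± 0.15, adjusted p = 0.0279). With the length and GC trend removed, Ndufs4 stood lower, at -0.49 (adjusted p = 0.00479).

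At the later time Ndufc2, a membrane-arm subunit, reached 1.45-fold its E0 level by the authors' deposited table for E4 (raised, 0.54 ± 0.10, adjusted p = 1.45e-06), with implied means of about 911 in E4 and 627 in E0. Ndufb3, also of the membrane arm, was raised 1.40-fold there (0.49 ± 0.12, adjusted p = 0.000459). Neither was called in E1, at -0.15 ± 0.14 and -0.13 ± 0.17 in the authors' deposited table. Among the lowered members of complex I in E4, Ndufv3 stood at -0.61 ± 0.12 (adjusted p = 1.55e-06), Ndufb4 at -0.41 ± 0.12 and Ndufa6 at -0.38 ± 0.12 in the authors' deposited table, ahead of Ndufs3 at -0.31 ± 0.11, Ndufv1 at -0.23 ± 0.10 and Ndufa8 at -0.25 ± 0.11. The calls of Ndufs3, Ndufv1 and Ndufa8 were lost when the length and GC trend was removed (adjusted p = 0.0609, 0.209 and 0.187).

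Complex II, succinate dehydrogenase, is also an enzyme of the tricarboxylic acid (TCA) cycle. Its iron-sulfur subunit Sdhb and both membrane anchors, Sdhc and Sdhd, were lowered in E1, at -0.48 ± 0.13, -0.57 ± 0.14 and -0.58 ± 0.16 in the authors' deposited table. The flavoprotein Sdha, which binds succinate, was not called in E1, at 0.18 ± 0.09 in the authors' deposited table (adjusted p = 0.103). In the authors' deposited table for E4, Sdhc (-0.35 ± 0.10) and Sdhb (-0.24 ± 0.10) were lowered, while Sdhd (0.01 ± 0.11) and Sdha (-0.10 ± 0.08) were not called. Removal of the length and GC trend ended the call of Sdhb in both comparisons, and brought Sdhd in E1 to -0.38 (adjusted p = 0.0492). Sdhc stayed lowered in that form, at -0.61 in E1 and -0.36 in E4.

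Complex III hands electrons from ubiquinol to cytochrome c. The hinge protein gene Uqcrh was its lowest member in E1, at -0.67 ± 0.12 in the authors' deposited table (adjusted p = 5.08e-07), with implied means of about 430 in E1 and 683 in E0. Uqcr11 (-0.54 ± 0.15), Uqcrb (-0.40 ± 0.14) and the core protein genes Uqcrc1 (-0.40 ± 0.14) and Uqcrc2 (-0.33 ± 0.10) were lowered as well in the authors' deposited table. With the length and GC trend removed, the calls of Uqcr11 (-0.17, adjusted p = 0.428), Uqcrb (-0.33, adjusted p = 0.0609) and Uqcrc1 (-0.20, adjusted p = 0.278) ended. Uqcrh stayed lowered at -0.35 and Uqcrc2 at -0.41 in that form. Uqcrfs1, which encodes the Rieske iron-sulfur protein, was not called in E1 (-0.13 ± 0.12) and raised 1.26-fold in E4 (0.33 ± 0.10, adjusted p = 0.00405) in the authors' deposited tables. It was the only complex III call in E4, where 0 of the 8 were lowered by the authors' DESeq2 test and 0 were lower at an unadjusted p below 0.05.

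Complex IV, cytochrome c oxidase, reduces oxygen, and its nuclear subunits surround a mitochondrially encoded core. Small subunits made up 4 of its 5 lowered genes in E1. In the authors' deposited table Cox7c stood at -0.96 ± 0.15 (adjusted p = 5.07e-10), Cox6c at -0.70 ± 0.12, Cox6b1 at -0.60 ± 0.12 and Cox8a at -0.41 ± 0.10. The other lowered gene was Cox7a2l, which encodes a factor linked to supercomplexes of complexes III and IV, at -0.69 ± 0.12 in the authors' deposited table. Cox7c had implied means of about 251 in E1 and 489 in E0. Cox6b1 (-0.26, adjusted p = 0.0835) and Cox8a (-0.05, adjusted p = 0.769) lost their calls when the length and GC trend was removed, and Cox6c stood at -0.41, Cox7c at -0.76 and Cox7a2l at -0.46. For Cox7c, transcripts of other genes held 53.0% of its 50-base words, so its reads may be shared with copies.

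Cox4i1 (-0.01 ± 0.12), Cox5a (0.11 ± 0.14) and Cox5b (-0.11 ± 0.12), the larger nuclear subunits, were not called in E1 in the authors' deposited table. Cox5a was raised 1.39-fold in E4 (0.47 ± 0.11, adjusted p = 7.22e-05), with implied means of about 1203 in E4 and 868 in E0 in the authors' deposited table. Cox7b was raised 1.19-fold in E4 (0.25 ± 0.10, adjusted p = 0.0403) and Cox7a2l lowered (-0.27 ± 0.09) in the authors' deposited table. The call of Cox7b was lost when the length and GC trend was removed (adjusted p = 0.0576).

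Isoforms of several complex IV subunits are made in particular tissues such as heart, skeletal muscle, lung or testis, and these were little read in the dentate gyrus. Levels between genes are given as the mean count per kb of transcript in the table for E4 against E0. Per kb, Cox4i1 stood at 4239 and Cox4i2 at 13.7, Cox6a1 at 3935 and Cox6a2 at 26.2, and Cox6b1 at 2428 and Cox6b2 at 21.2. Cox7a2 stood at 1505 per kb and Cox7a1 at 18.2, Cox7b at 947 and Cox7b2 at 22.4, Cox8a at 4300 and Cox8b at 7.48, and Cox8c was listed at 0. A paralogue pair named for complex I differed in the same way, with 3054 per kb for Ndufa4 and 12.2 for Ndufa4l2. None of the 6 tested genes among these low isoforms was called in E1 or E4 by the authors' DESeq2 test, and 0 had an unadjusted p below 0.05. Their SEs of 0.32 to 0.55 leave changes of the size seen elsewhere undetectable.

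**Figure D3:**
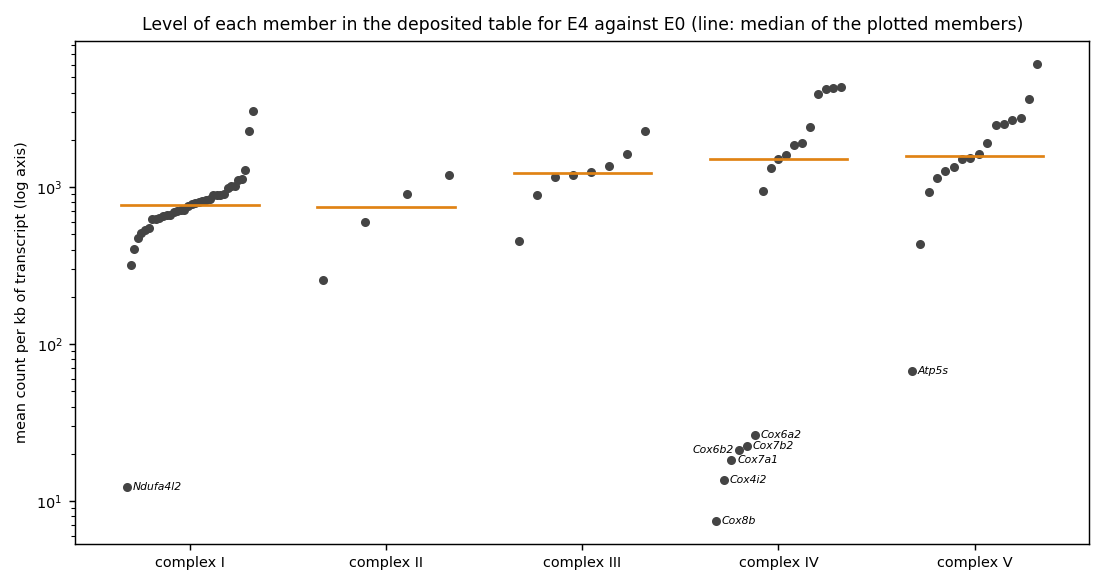
Mean count per kb of transcript (log y axis) of each member above 0 with a transcript length in the deposited table for E4 against E0, by complex (x axis), with a line at the median of the plotted members. The tissue isoforms of complex IV and Ndufa4l2 lie at 26.2 per kb or below, and Atp5s of complex V, at 67.3, is the next lowest.

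The member with the highest level per kb was Atp5b of complex V, at 6113, followed by Cox6c (4348) and Cox8a (4300) of complex IV. Medians per kb over members above 0 were 766 in complex I, 749 in complex II, 1222 in complex III, 1505 in complex IV and 1577 in complex V. Ndufs5, a subunit that complex I needs in every cell, was listed at 0 in both tables. Of its 50-base transcript words, 41.2% also lie in the transcript of the processed pseudogene BC002163, which had a mean count of 44.3 in the table for E4.

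Complex V, the ATP synthase, has a catalytic F1 head, a ring of c subunits in the membrane, a stalk that holds the head still, and small membrane subunits that shape the cristae. The 3 small membrane subunit genes fell together in E1. Atp5k (subunit e) was the lowest of all members, at -1.28 ± 0.16 in the authors' deposited table (adjusted p = 1.03e-13), with implied means of about 204 in E1 and 494 in E0. Atp5l (subunit g) stood at -0.79 ± 0.14 and Atp5j2 (subunit f) at -0.64 ± 0.14 in the authors' deposited table. Removing the length and GC trend kept the 3 calls, at -0.85 for Atp5k, -0.55 for Atp5l and -0.38 for Atp5j2. In E4 none of the 3 was called, with Atp5k at -0.06 ± 0.12, Atp5l at 0.20 ± 0.11 and Atp5j2 at -0.08 ± 0.11 in the authors' deposited table. Other genes hold 84.8% of the 50-base words of Atp5l, but only 1.24% of those of Atp5k and 3.75% of those of Atp5j2.

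Atp5k and Atp5l were also the lowered members with the smallest adjusted p whose promoter held a searched motif, and their upstream sequences are shown for that reason. They are the 250 bases before the start of each gene, from RefSeq on GRCm38.p6, read 5′ to 3′ on the minus strand, at chr5:108434400-108434649 for Atp5k and chr9:44920743-44920992 for Atp5l. Capitals mark GCATGCG, from the middle of the NRF1 consensus, and CCGGAAG, from that of GABP, in either orientation; the capital run CGCATGCG holds the first motif in both orientations, which overlap.
Atp5k: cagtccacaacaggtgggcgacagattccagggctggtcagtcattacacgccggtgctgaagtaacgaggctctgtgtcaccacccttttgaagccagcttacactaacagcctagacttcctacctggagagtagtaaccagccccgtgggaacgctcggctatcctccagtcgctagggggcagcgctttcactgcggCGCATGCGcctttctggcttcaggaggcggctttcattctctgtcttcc
Atp5l: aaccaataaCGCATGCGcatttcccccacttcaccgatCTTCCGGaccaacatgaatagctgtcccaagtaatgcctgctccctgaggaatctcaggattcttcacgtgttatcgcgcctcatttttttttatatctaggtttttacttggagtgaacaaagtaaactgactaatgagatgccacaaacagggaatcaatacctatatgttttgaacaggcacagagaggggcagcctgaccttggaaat

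Of the 84 members 66 had a promoter in the RefSeq table. The NRF1 letters were found in 9 of them (13.6%) and in 3.43% of all 27025 genes with a promoter, the GABP letters in 12 of them (18.2%) and in 7.83% of all. Of the 18 members with either motif 10 were lowered in E1 (median log2 fold change -0.50), and of 46 tested members with neither 19 were lowered (median -0.23). These matches describe letters in a window and were not tested against the changes.

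The F1 head genes differed among themselves in E1. Atp5c1, the rotating gamma subunit, was lowered at -0.60 ± 0.11, Atp5e at -0.55 ± 0.16 and Atp5a1 at -0.31 ± 0.09 in the authors' deposited table. The call of Atp5e ended once the length and GC trend was removed (-0.12, adjusted p = 0.60), and Atp5c1 and Atp5a1 stayed lowered. Atp5b, the catalytic subunit and the most read member with a mean count of 5547, was not called (-0.19 ± 0.09, adjusted p = 0.0717), nor was Atp5d (0.04 ± 0.14), in the authors' deposited table. In E4 Atp5d was raised 1.21-fold (0.28 ± 0.09, adjusted p = 0.0089) in the authors' deposited table and no head gene was lowered. Stalk genes Atp5o (-0.53 ± 0.12), Atp5h (-0.52 ± 0.12) and Atp5f1 (-0.28 ± 0.10) were lowered in E1 in the authors' deposited table, and none of the 4 stalk genes was called in E4. The E1 calls of all 3 ended when the length and GC trend was removed, at -0.18 for Atp5o (adjusted p = 0.244), -0.19 for Atp5h (adjusted p = 0.216) and -0.15 for Atp5f1 (adjusted p = 0.297). Other genes hold 50.5% of the 50-base words of Atp5h, 38.7% of those of Atp5f1 and 34.0% of those of Atp5o.

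The c ring is encoded by 3 genes, Atp5g1 to Atp5g3, whose mature products are the same protein. Atp5g2 was lowered in both comparisons, at -0.73 ± 0.14 in E1 (adjusted p = 3.08e-06) and -0.31 ± 0.10 in E4 (adjusted p = 0.00553) in the authors' deposited tables. The transcribed pseudogene Gm10175 holds 87.4% of the 50-base words of Atp5g2, so the value may be of both. It stood at -0.38 in E1, still lowered, once the length and GC trend was removed. Atp5g3 was not called in E1 (-0.15 ± 0.11) and raised 1.25-fold in E4 (0.32 ± 0.09, adjusted p = 0.00139), with implied means of about 2188 in E4 and 1751 in E0, in the authors' deposited tables. Atp5g1 stood at -0.27 ± 0.12 in E1 (adjusted p = 0.0576) and 0.10 ± 0.09 in E4 and was not called in the authors' deposited tables. Atp5g3 shares 0 of its 50-base words with other genes. Per kb its level was 2741, against 1139 for Atp5g2 and 431 for Atp5g1, in the table for E4.

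Atp5s and Atp5sl carry ATP synthase symbols but are not regular subunits of the enzyme. Along with Ndufv3 they had the lowest values among members called in E4, with Atp5s at -0.81 ± 0.20 (adjusted p = 0.000223) and Atp5sl at -0.56 ± 0.15 (adjusted p = 0.000845) in the authors' deposited table. Neither was called in E1, at -0.16 ± 0.25 and -0.46 ± 0.20 in the authors' deposited table.

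Both tables use the same E0 libraries, so calls in both are not independent. Members lowered in each included Atp5g2, Cox7a2l, Ndufb4, Ndufv3, Sdhb and Sdhc. Of the 7 members raised in E4 (Ndufc2, Ndufb3, Uqcrfs1, Cox5a, Cox7b, Atp5g3 and Atp5d), each was without a call in E1.

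To set E4 against E1, the log2 fold change of E1 was subtracted from that of E4 and divided by the root of the summed squared SEs, for genes whose mean count reached 10 in each table. Of 76 members tested 30 were higher in E4 (39.5%) and 0 lower, where 17.7% of all 12769 genes were higher and 19.0% lower, or 36.7% in either direction. At an unadjusted normal p below 0.05, 37 members were higher and 2 lower. The median difference was 0.32 on the log2 scale, beside 0.01 for all genes. With the length and GC trend removed from both tables, 12 of 75 members were higher (16%) and 0 lower (5 at an unadjusted p below 0.05), beside 18.3% and 18.0% of all genes, so that the share higher in E4 was no longer above that of all genes. The median difference was then 0.11, beside 0.03 for all genes.

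The largest differences belonged to members lowered in E1 and near 0 in E4. Cox7c stood at 0.19 ± 0.10 in E4 and -0.96 ± 0.15 in E1, a difference of 1.15 ± 0.18 (adjusted p = 2.04e-09). Ndufb11 had a difference of 1.12 ± 0.19 (adjusted p = 2.39e-08) and Atp5k of 1.22 ± 0.20 (adjusted p = 2.67e-08). Atp5l (0.99 ± 0.18), Cox6c (0.83 ± 0.16) and Ndufb9 (0.75 ± 0.15) came next. By complex, 11 of 17 members were higher in E4 than in E1 in complex V, 4 of 8 in complex III, 10 of 35 in complex I, 4 of 12 in complex IV and 1 of 4 in complex II. All 3 c ring genes and all 3 small membrane subunit genes of complex V were among them. With the length and GC trend removed, the c ring genes and Atp5j2 lost that call, while Cox7c (0.94), Ndufb11 (0.86), Atp5k (0.81), Atp5l (0.74), Cox6c (0.54) and Ndufb9 (0.45) kept it. The complex I core subunit Ndufv2 was among the members higher in E4 than in E1, at 0.42 ± 0.16 (adjusted p = 0.0233).

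Other mitochondrial genes are set beside the members here, from lists chosen with earlier results of these data known. Assembly factors, which build the complexes and do not stay in them, had 6 raised, 8 lowered and 27 not called of 41 in E1, with a median log2 fold change of -0.10. Raised in E1 were Ndufaf7, a methyltransferase acting on complex I (0.98 ± 0.17), and Sco1, a copper carrier for complex IV (1.27 ± 0.24), in the authors' deposited table. Uqcc2, an assembly factor of complex III, stood lower, with -0.97 ± 0.18 in the authors' deposited table. In E4 the counts were 5 raised, 8 lowered and 28 not called, with Cox19 at 0.72 ± 0.14, Ttc19 at 0.48 ± 0.10 and Coa3 at -0.62 ± 0.13 in the authors' deposited table.

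Among electron carriers and subunits outside the symbols, Cyc1, the cytochrome subunit of complex III, was lowered in E1 (-0.40 ± 0.12, adjusted p = 0.00239) in the authors' deposited table. Cycs, cytochrome c itself, was not called in E1 (0.09 ± 0.11) and raised 1.41-fold in E4 (0.49 ± 0.09, adjusted p = 4.74e-07) in the authors' deposited tables. These were 1 lowered of 6 in E1 and 1 raised and 1 lowered in E4, the lowered gene being Etfb at -0.32 ± 0.13 in the authors' deposited table. Ndufab1 was not called in either.

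Genes of the TCA cycle and pyruvate dehydrogenase, which supply the NADH and succinate, had 2 raised and 2 lowered of 17 in E1 and 4 raised and 1 lowered in E4. Their median log2 fold change was -0.01 in E1 and -0.04 in E4. In E1 Suclg1 was lowered (-0.55 ± 0.14) and Dlat raised (0.38 ± 0.14) in the authors' deposited table. Cs, citrate synthase, was raised 1.57-fold in E4 (0.65 ± 0.08, adjusted p = 4.59e-14), along with Sucla2 (0.39 ± 0.10) and Dld (0.36 ± 0.10), in the authors' deposited table.

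Of 10 genes that move adenylates and phosphate, 2 were raised and 1 lowered in E1, and 3 raised and 3 lowered in E4. Slc25a3, the mitochondrial phosphate carrier, was raised in each, 1.83-fold in E1 (0.87 ± 0.10, adjusted p = 3.69e-17) and 1.67-fold in E4 (0.74 ± 0.09, adjusted p = 1.74e-16), in the authors' deposited tables. The mitochondrial creatine kinase gene Ckmt1 was lowered in each, at -0.40 ± 0.11 in E1 and -0.79 ± 0.10 in E4 in the authors' deposited tables. Slc25a4, an ADP/ATP carrier, was raised in E1 (0.25 ± 0.09) and Slc25a5, another, in E4 (0.39 ± 0.11) in the authors' deposited tables.

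Regulators of mitochondrial biogenesis had 4 raised and 1 lowered of 16 in E1, and 6 raised and 3 lowered in E4. Ppargc1a was raised 1.59-fold in E1 (0.67 ± 0.17, adjusted p = 0.000342) and lowered in E4 (-0.46 ± 0.14, adjusted p = 0.00498) in the authors' deposited tables. Tfam, which packages and transcribes mitochondrial DNA, was lowered in E1 (-0.74 ± 0.19, adjusted p = 0.000482) and not called in E4 (0.10 ± 0.12) in the authors' deposited tables. Nrf1 was not called in E1 (0.01 ± 0.28) and raised 1.78-fold in E4 (0.83 ± 0.15, adjusted p = 6.81e-07) in the authors' deposited tables.

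The GABP subunit gene Gabpb1 was raised 2.26-fold in E4 (1.18 ± 0.14, adjusted p = 1.3e-15) and Gabpb2 was raised 1.84-fold in E1 (0.88 ± 0.19, adjusted p = 2.93e-05) in the authors' deposited tables. Gabpa was raised in both, at 0.52 ± 0.18 in E1 and 0.42 ± 0.13 in E4 in the authors' deposited tables, and its transcripts share some 50-base words with its neighbour Atp5j. Yy1, which acts with Ppargc1a, was also raised in both, at 0.34 ± 0.14 in E1 (adjusted p = 0.0478) and 0.50 ± 0.11 in E4 in the authors' deposited tables. Of genes of uncoupling and related functions, 1 of 8 was called in E1, with Ucp2 at -1.27 ± 0.19, and 3 of 8 in E4, with Slc25a27 at -1.15 ± 0.15, Higd2a at -0.33 ± 0.12 and Chchd2 at 0.40 ± 0.10, in the authors' deposited tables.

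Ribosomal protein genes, which are likewise short, give a scale for the members. Of 77 mitochondrial ribosomal protein genes 26 were lowered and 1 raised in E1 (33.8% and 1.30%, median log2 fold change -0.37), and of 80 tested cytosolic ribosomal protein genes 67 were lowered and 1 raised (83.8% and 1.25%, median -0.61). In E4 the mitochondrial set had 6 lowered and 12 raised and the cytosolic set 1 lowered and 20 raised, with medians of 0.05 and 0.12. No test of the difference between these sets and the members was made. The plot of shares by gene set puts them beside each complex.

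**Figure D4:**
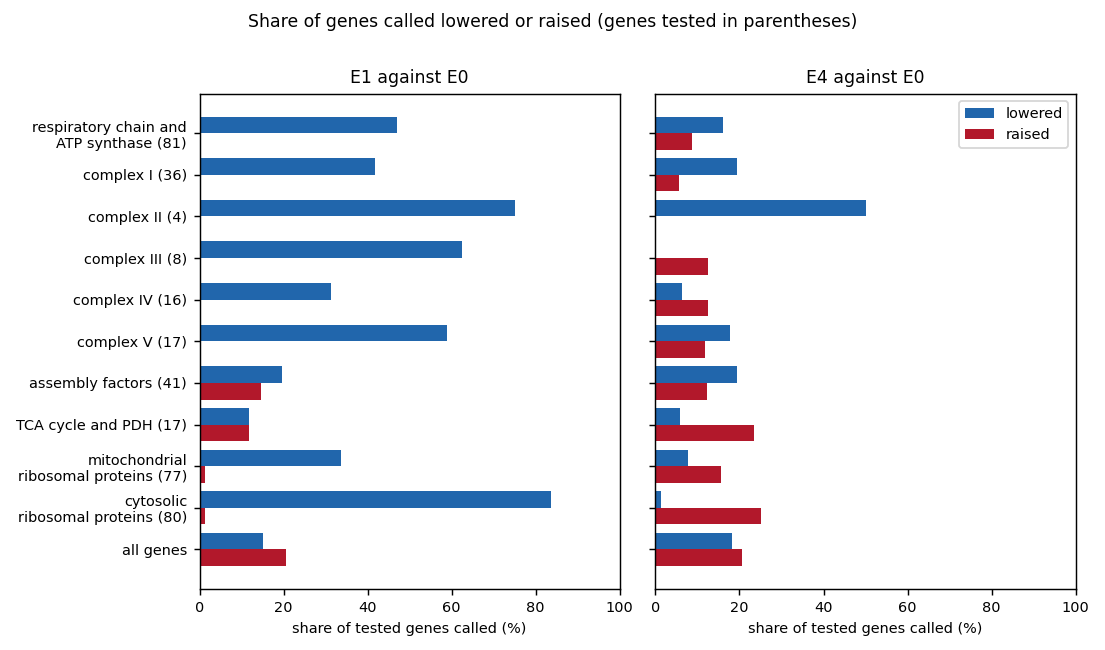
Share of tested genes called lowered (blue) or raised (red) in percent (x axis), for the members, each complex, other gene sets and all genes (y axis, genes tested in E1 in parentheses), in E1 against E0 (left) and E4 against E0 (right). In E1 the members show 46.9% lowered and 0 raised, against 15.0% and 20.6% of all genes. All genes include little-read ones, while 75 members had a mean count of at least 50.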

How the data were processed

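The submitters' processing notes name TopHat2, DESeq2 and the build mm9, without versions. Counting program, annotation and strand setting: not given in the sources used here. Per the file headers, the deposited signal column is a mean of normalised counts over the libraries of a comparison, on a scale of its own in each table; the deposited log2 fold changes and SEs and the deposited score (their quotient) are the authors' estimates, as are the deposited p-values and adjusted p-values. Little-read genes had small fold changes (median absolute log2 value 0.142 in E1 and 0.106 in E4 where the mean count was under 1), as shrinkage toward 0 gives. The tables do not name E0 inside. E0 as the reference group was assumed from their names and the design of the series. A missing adjusted p was kept missing, which left out Cox8b, Cox8c and Ndufs5. For E1 against E0, 27 symbols that had been turned into dates were left out of joins.

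Because the tables hold comparison statistics, no count test was run. An implied group mean is the mean count split by the deposited fold change. Library depth was estimated from the mean-count steps that single reads leave. Transcript lengths are medians over GENCODE M21 transcripts with a RefSeq accession, found for 83 of 84 members. Shared sequence is the share of a member's 50-base words, on either strand, in transcripts of other genes; 29 of 83 members had over 10% and 37 had none. The length and GC trend was a robust spline fit (statsmodels 0.14.6, Python 3.11.15, 5 degrees of freedom each), centred on its median. Benjamini-Hochberg adjustment ran over all genes. The steps were also run on simulated data, with pass bounds set after a first run. The simulated noise shared through E0 was small, so that run says little on the sharing of E0. Alternatives changed the threshold, filter, scaling, trend and members.

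Members with the smallest adjusted p per complex and comparison, members called against the majority or in both tables, isoform sets and low members were named, with up to 3 genes of each other list; some genes that this rule would name are not reported here. The members and lists were chosen with earlier results of these data known. Per the labels, samples came from individual mice. The p-values rest on SEs in which the parts of depth and of spread between these mice cannot be told apart.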

Additional observations from a re-analysis of the deposited data

Results flagged for a closer look

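The difference between the later and the earlier time passed the test for 30 of 76 members (39.5%), all higher in E4. Of all genes, 36.7% passed in either direction and 17.7% were higher in E4. By the same test of E4 against E1, Cox7c differed by 1.15, Ndufb11 by 1.12 and Atp5k by 1.22 on the log2 scale, the 3 smallest adjusted p among the members. With the length and GC trend removed, 12 of 75 passed (16%), all higher in E4, beside 18.3% of all genes higher. The approximation treats both SEs as independent although E0 is shared.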

How the results depend on the processing

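No paired analysis was possible because the deposited tables give no values per library, and leaving out single replicates was not run for the same reason. With the length and GC trend taken out there were 25 calls in E1 (21 lowered, 4 raised) in place of 38, a median of -0.15 in place of -0.31, and 12 calls of 75 for E4 against E1 (16% higher, beside 18.3% of all genes) in place of 30 of 76. Leaving out members that share over 10% of their 50-base words with any gene, an alternative chosen after seeing the data, left 23 calls among 53 members in E1. This stood in place of 38 calls among 81 members, so that the number of members fell along with the calls. Requiring an absolute log2 fold change of at least 0.5 left 4 calls in E4 (1 raised, 3 lowered) in place of 20. At an adjusted p under 0.01, E4 against E1 had 17 calls. All the other settings run stayed within 1.5 times the reported counts, with 27 to 40 calls in E1, 14 to 21 in E4 and 27 to 39 for E4 against E1. No called member changed sign under any setting run. The cause of these shifts was not tested. Genes whose mean count reached 50 had a median SE of 0.17 in E1 and 0.135 in E4, and the parts of depth and of spread between mice in these SEs cannot be told apart here.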
